A study of Mus musculus with 11 samples.

Results

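The aortic valves of young mice were compared between wire injury and sham surgery, with 3 injured and 3 sham libraries chosen by their sample titles out of 11 libraries in all. All mice were wild type, and each library held the valve tissue of 1 mouse. The young mice were 3 to 4 months old. In the injured group a wire had been used in the living mouse to damage the valve's endothelial layer, the control group had a sham operation, and valves were taken 48 hours later. The strain is not stated in the labels, and the tissue was dissected whole, so that no cell type was sorted. The other 5 libraries came from aging mice of 16 to 18 months, with 3 sham and 2 injured valves. They shared the estimate of spread in the fit and served for the test of injury at that age and for the test of whether a change in young valves differed from that in aging valves.

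An aortic valve leaflet is a thin sheet of collagen, proteoglycan and elastic fibres made by valve interstitial cells and covered on both faces by endothelium. Interstitial cells of a healthy adult valve are mostly quiescent, and damage to the endothelium is known to bring them into division, migration and matrix production. The leaflets are anchored at the root of the aorta beside ventricular muscle, so a dissected valve can carry cardiac muscle with it.

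Total counts of the young libraries ranged from 27285385 to 36009433, and 18641 to 22194 genes had at least 1 count. Of 46983 genes counted, 19366 had enough counts to be tested. Levels are given as CPM, the usual count per library size, scaled by edgeR's TMM factors, in the order of replicates 1, 2 and 3, and changes as log2 fold changes, injured minus sham, with their standard error (SE). A gene was said to rise or fall at an adjusted p under 0.1 and a change of over 2-fold, and every adjusted p comes from edgeR's quasi-likelihood test across all genes unless another tool is named. By Xist and Y-linked counts, the sham group held 2 males and 1 female and the injured group 1 male and 2 females.

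Cardiac muscle transcripts were present in all 6 libraries and varied within both groups. Genes of the 3 cardiac muscle lists (sarcomere, calcium handling and membrane, other cardiomyocyte markers) took 3.74%, 5.10% and 6.31% of the counts in sham libraries and 2.02%, 1.90% and 6.53% in injured libraries. Injured 1 and 2 were thus below every sham library, and injured 3 was above every one. Mitochondrial transcripts were low and high in the same injured libraries, with 8.90%, 11.8% and 13.8% of counts in sham and 5.68%, 5.72% and 11.1% in injured valves.

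Myh6, the main myosin heavy chain of adult mouse heart muscle, stood at 6598, 10332 and 11676 CPM in sham and at 3572, 2865 and 9906 CPM in injured valves. Its log2 fold change was -0.81 ± 0.47 with an adjusted p of 0.669, and the groups overlapped through injured 3. Tnnt2, cardiac troponin T, stood at 2169, 3221 and 3766 CPM in sham and at 1008, 1189 and 3338 CPM in injured valves. Ryr2, the calcium release channel of the cardiac sarcoplasmic reticulum, stood at 323, 514 and 660 CPM in sham and at 131, 135 and 643 CPM in injured valves. These 3 genes shared 1 pattern, with injured 1 and 2 below all sham libraries and injured 3 among them.

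Chamber-specific genes differed between injured 1 and 2. Myl2, the ventricular myosin light chain, stood at 1051, 1271 and 1584 CPM in sham and at 53.1, 480 and 1631 CPM in injured valves. Myh7, the slow myosin heavy chain, stood at 3392, 3105 and 4978 CPM in sham and at 337, 1260 and 6596 CPM in injured valves. Injured 1 and 2 were below every sham library for both, and injured 1 was the lowest. Myl7, the atrial myosin light chain, stood at 104, 633 and 956 CPM in sham and at 506, 65.2 and 536 CPM in injured valves. Nppa, the atrial natriuretic peptide, stood at 202, 845 and 1230 CPM in sham and at 1305, 115 and 1624 CPM in injured valves. For these atrial genes injured 2 and sham 1 were the low libraries, while injured 1 was within or above the sham range. Actc1, cardiac alpha-actin, stood at 1921, 2020 and 3332 CPM in sham and at 1082, 652 and 5386 CPM in injured valves, where injured 1 and 2 were again below every sham library and injured 3 above, and the change was -0.03 ± 0.70.

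**Figure D1:**
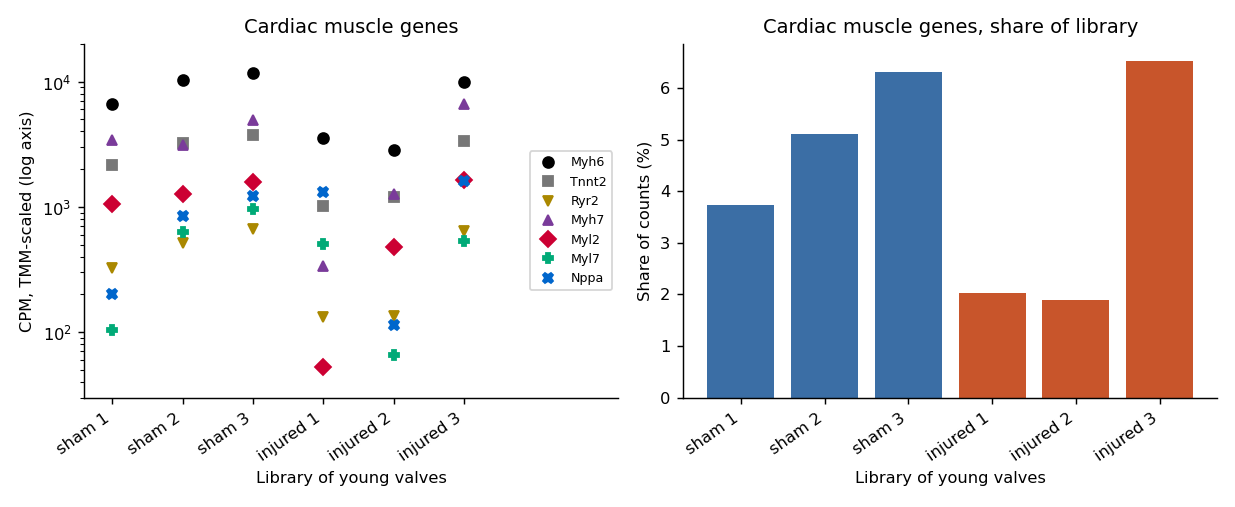
Left, levels of 7 cardiac muscle genes in each young library (TMM-scaled CPM, log axis), 1 symbol shape per gene. Right, share of each library's counts (%) taken by the 3 cardiac muscle lists, which was 2.02% and 1.90% in injured 1 and 2 and 6.53% in injured 3.

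Per length, in the RPKM values that the authors deposited for 13526 genes, Actc1 ranked first of all genes in injured 3, at 3646 RPKM, and 51st in injured 2, at 457 RPKM. Myl2 ranked 18th in injured 3 and 1727th in injured 1. Myh6 ranked between 6th and 16th in the sham libraries, 29th and 43rd in injured 1 and 2, and 8th in injured 3.

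Of the 59 cardiac list members tested, 0 were called, 57 had a negative change, and the median was -0.60 against 0.01 over all genes tested. The smallest adjusted p among them was 0.351, and 45 of the 59 had injured 1 and 2 below every sham library with injured 3 not below. The share of all genes tested with that order was not counted, so how unusual it is cannot be said. Whole valves were measured, so fewer cells of a type and less RNA per cell cannot be told apart.

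Beside this muscle signal, 78 genes rose and 3 fell after injury, which is 0.403% and 0.0155% of the genes tested. The unadjusted p was under 0.05 for 1780 genes. All 78 rising genes had every injured library above every sham library, an order that 9.54% of all genes tested had. The choice of the 78 by their change in these same libraries favours that order, so it is no separate support. Injured 2 was the highest injured library for 66 of the 78, injured 3 for 9 and injured 1 for 3, and injured 1 was the lowest for 53. Of the 81 called genes 19 were on the cell cycle list and 4 on the collagen list. The other 58, of which 55 rose, are described here by role, with roles given by hand after the values were seen.

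**Figure D2:**
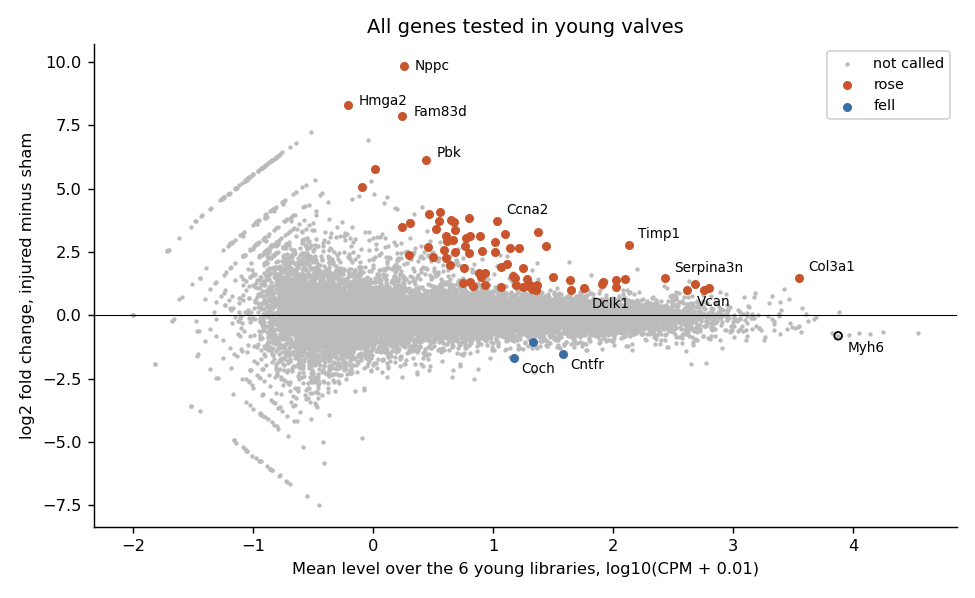
Each point is 1 of the 19366 genes tested, with its mean level over the 6 young libraries (log10 of CPM + 0.01, horizontal) and its log2 fold change (injured minus sham, vertical). The 78 rising genes (orange) spread from low levels up to that of Col3a1, and the 3 falling genes (blue) lie at middle levels. Myh6 (open circle), at a higher mean level than Col3a1, lies below 0 without being called.

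Genes of extracellular matrix and its turnover made up 8 of the 58, of which 7 rose. Timp1, a secreted inhibitor of matrix metalloproteinases (ENSMUSG00000001131, mm10 chromosome X, 20870166 to 20874735), stood at 43.3, 24.4 and 35.3 CPM in sham and at 172, 339 and 194 CPM in injured valves. The lowest injured library was above the highest sham library. The change was 6.84-fold, or 2.77 ± 0.28, with an adjusted p of 0.0054. Per length, Timp1 ranked between 942nd and 1701st in the sham libraries and 149th, 57th and 142nd in the injured libraries.

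Tnc, which encodes the matrix glycoprotein tenascin C, stood at 82.7, 69.3 and 51.0 CPM in sham and at 142, 222 and 187 CPM in injured valves, a change of 1.44 ± 0.23 (adjusted p = 0.0321). Cthrc1, a secreted protein of activated fibroblasts, stood at 6.09, 3.19 and 3.94 CPM in sham and at 17.9, 46.6 and 19.9 CPM in injured valves, a change of 2.67 ± 0.43 (adjusted p = 0.0339). Neither gene's groups overlapped, and injured 2 was the highest library for both. Adam12, a membrane metalloprotease of activated mesenchymal cells, rose 8.80-fold from 0.986, 0.920 and 2.05 CPM to 4.08, 15.3 and 15.3 CPM. Mmp14, a membrane-anchored collagenase, rose 2.16-fold, and Adamts8, a secreted metalloprotease, 2.63-fold. Vcan, the large hyaluronan-binding proteoglycan versican, was steady within the sham group at 272, 273 and 283 CPM and stood at 672, 509 and 488 CPM in injured valves, 2.02-fold higher (adjusted p = 0.0644). Unlike most rising genes, Vcan was highest in injured 1. Most members of the gene lists that hold such genes were not called. Of 30 proteoglycan, hyaluronan and matricellular genes tested, 1 rose (Vcan), 18 were positive and 12 negative (median 0.09). Of 27 matrix proteases and their inhibitors tested, 2 rose (Timp1 and Mmp14), 19 were positive and 8 negative (median 0.28).

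Both rising serpins were protease inhibitors of other kinds. Serpinb1a, an intracellular inhibitor of neutrophil serine proteases, stood at 7.98, 6.35 and 8.52 CPM in sham and at 25.3, 41.4 and 17.7 CPM in injured valves, a change of 1.89 ± 0.32 (adjusted p = 0.0473). Serpina3n, a secreted acute-phase serpin, stood at 184, 100 and 138 CPM in sham and at 243, 590 and 356 CPM in injured valves, a change of 1.49 ± 0.32 (adjusted p = 0.0978).

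Among ligands, Lif, leukemia inhibitory factor, of the interleukin-6 cytokine family (mm10 chromosome 11, 4257557 to 4272514), stood at 3.19, 2.18 and 1.93 CPM in sham and at 7.24, 10.7 and 8.96 CPM in injured valves. The groups did not overlap, and the change was 1.87 ± 0.32 (adjusted p = 0.0444). Inhba, the subunit of activin A, rose 2.88-fold, from 14.9, 16.3 and 17.1 CPM to 30.8, 72.0 and 36.1 CPM (adjusted p = 0.0474). Nppc, the precursor of C-type natriuretic peptide, had 0 counts in every young sham library and 71, 223 and 78 counts in the injured libraries. With 3 counts over the sham group as the floor, Nppc was at least 110-fold higher (adjusted p = 0.0748).

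Cntfr, the receptor subunit for ciliary neurotrophic factor and thus a receptor of the same cytokine family as Lif, went the other way. It stood at 71.0, 56.9 and 41.5 CPM in sham and at 16.2, 25.7 and 16.4 CPM in injured valves, without overlap and 2.90-fold lower (-1.54 ± 0.30, adjusted p = 0.0748). Il6st, the receptor chain that this family shares, was the most abundant of the growth factor and receptor list and changed by 0.03 ± 0.12. Of the 50 members tested on that list, 1 rose (Lif) and 1 fell (Cntfr), and the median was 0.20.

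Other signalling genes that rose were Lrp8, a reelin and apolipoprotein E receptor, at 3.78-fold, Nkd2, an inhibitor of Wnt signalling, at 2.03-fold, and Tnfrsf23, a decoy receptor of the TRAIL ligand, at 3.22-fold. Lrp8 was highest in injured 3, at 26.5 CPM against 14.5 and 13.9 CPM in injured 1 and 2 and 3.93 to 5.76 CPM in sham valves.

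The promoters of 4 rising genes are shown as the 250 bases before the RefSeq start (GRCm38.p6, gene strand), because these genes stand for matrix, cytokine, cell division and hormone genes. Capitals mark a CCAAT box (CCAAT, or ATTGG on the other strand), the AP-1 motif TGANTCA and the cell cycle homology region TTTGAA, searched on both strands. They are at chrX:20869916-20870165 (plus strand), chr11:4257318-4257567 (plus), chr2:158767849-158768098 (plus) and chr1:86670574-86670823 (minus), in the order printed.
Timp1: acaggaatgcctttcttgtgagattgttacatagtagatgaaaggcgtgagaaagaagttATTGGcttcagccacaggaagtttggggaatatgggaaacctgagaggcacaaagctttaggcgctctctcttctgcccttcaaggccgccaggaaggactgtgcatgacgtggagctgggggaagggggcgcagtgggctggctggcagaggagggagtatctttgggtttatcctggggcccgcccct
Lif: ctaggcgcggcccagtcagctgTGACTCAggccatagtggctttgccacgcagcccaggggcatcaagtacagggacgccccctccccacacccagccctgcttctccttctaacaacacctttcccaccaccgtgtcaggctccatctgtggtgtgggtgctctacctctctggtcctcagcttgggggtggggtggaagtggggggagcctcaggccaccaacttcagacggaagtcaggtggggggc
Fam83d: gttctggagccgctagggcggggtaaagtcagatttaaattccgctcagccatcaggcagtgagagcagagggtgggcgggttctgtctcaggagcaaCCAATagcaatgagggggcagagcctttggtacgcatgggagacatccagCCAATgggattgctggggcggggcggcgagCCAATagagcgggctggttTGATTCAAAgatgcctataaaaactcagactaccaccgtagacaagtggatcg
Nppc: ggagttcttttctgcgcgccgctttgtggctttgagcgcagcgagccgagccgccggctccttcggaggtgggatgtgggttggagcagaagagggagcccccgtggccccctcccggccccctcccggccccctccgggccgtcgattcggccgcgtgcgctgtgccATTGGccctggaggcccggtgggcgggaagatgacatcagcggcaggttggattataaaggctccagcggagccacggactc

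Timp1 and Nppc each held 1 CCAAT box on the other strand, and Lif held 1 AP-1 motif, TGACTCA. Fam83d held 3 CCAAT boxes, and its TGATTCA and the TTTGAA of the other strand overlap in 1 capital run. Over the 12353 tested genes with a RefSeq entry, 39.6% held a CCAAT box, 13.2% TTTGAA and 6.07% TGANTCA in this window. Of the 78 rising genes 61 had an entry, and the shares were 65.6%, 24.6% and 6.56%. Of the 19 rising genes on the cell cycle list 16 had an entry, and the shares were 93.8%, 43.8% and 0%. Of the 59 rising genes off the cell cycle list 45 had an entry, and the shares were 55.6%, 17.8% and 8.89%. These 59 still hold the 21 cell division genes described below, whose shares were not counted apart. A match describes letters only, and binding was not measured.

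The cytoskeleton was represented by microtubule genes. Dclk1, a microtubule-associated kinase (mm10 chromosome 3, 55242364 to 55539068), stood at 40.7, 32.5 and 37.3 CPM in sham and at 79.1, 81.02 and 73.9 CPM in injured valves. The 3 injured libraries lay close together, and the change was 1.08 ± 0.12 (adjusted p = 0.0054). Tubb3, a beta-tubulin best known from neurons, stood at 12.6, 9.48 and 8.63 CPM in sham and at 25.0, 37.5 and 21.6 CPM in injured valves, a change of 1.45 ± 0.25 (adjusted p = 0.0473). Tubb2b, another beta-tubulin, rose 2.20-fold and Stmn1, the microtubule-destabilising protein stathmin, 2.94-fold. S100a4, a calcium-binding protein of motile fibroblasts and leukocytes, rose 2.64-fold.

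S100a4 was on a list of actin cytoskeleton, annexin and S100 genes, which did not hold the other 4. Of the 41 members tested, 35 were positive with a median of 0.47, and 7 had an adjusted p under 0.1 upward at any fold, a limit that 0.635% of all genes tested passed. Of those 7, only S100a4 was over 2-fold. Tubb5, the most used beta-tubulin of many dividing cells, stood at 261, 227 and 264 CPM in sham and at 434, 511 and 434 CPM in injured valves (0.88 ± 0.13, adjusted p = 0.0249). Anxa2, a membrane-binding annexin, stood at 229, 208 and 252 CPM in sham and at 383, 508 and 424 CPM in injured valves (0.93 ± 0.15, adjusted p = 0.0321). Vim, the intermediate filament of mesenchymal cells and the most abundant of the list, stood at 6277, 5024 and 3662 CPM in sham and at 4943, 5866 and 3409 CPM in injured valves, and its groups overlapped.

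The chaperones and carriers of the endoplasmic reticulum, through which collagen and other secreted proteins pass, held no called gene. Of 38 members tested, 36 were positive and 2 negative with a median of 0.50. Every injured library was above every sham library for 28, an order that 9.54% of all genes tested had. An adjusted p of 0.1 was passed by 7, all upward and all under 2-fold, against 0.635% of all genes tested upward at any fold. Pdia4, a protein disulfide isomerase, stood at 76.6, 75.7 and 93.6 CPM in sham and at 134, 138 and 151 CPM in injured valves, a change of 0.78 ± 0.12 (adjusted p = 0.0264). Manf, a secreted endoplasmic reticulum stress protein, stood at 40.2, 40.5 and 59.3 CPM in sham and at 77.3, 84.4 and 93.2 CPM in injured valves (0.87 ± 0.16, adjusted p = 0.0622). Serpinh1, the collagen chaperone HSP47 and the most abundant of the list, stood at 544, 421 and 487 CPM in sham and at 797, 802 and 885 CPM in injured valves (0.77 ± 0.16, adjusted p = 0.0932). In all 3 genes the injured values lay within a narrow range above every sham value. The other 4 were Kdelr2, Pdia6, Hyou1 and Sec61b, at 0.60, 0.86, 0.66 and 0.79, named after their values were seen. The summed level of the list was 5136, 4736 and 5644 CPM in sham and 6579, 7306 and 8045 CPM in injured valves.

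**Figure D3:**
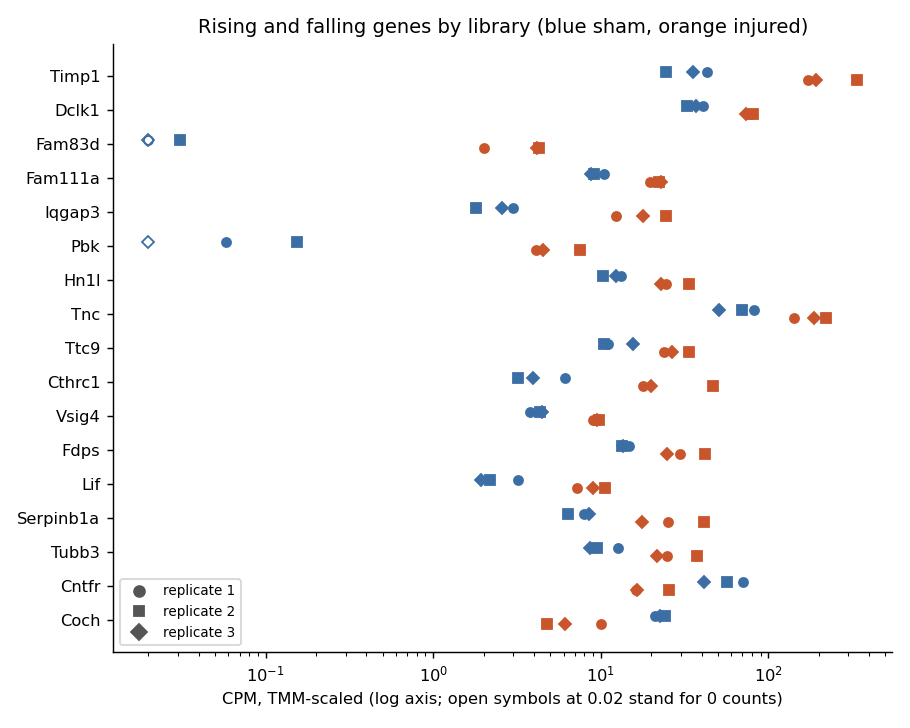
Levels of 15 rising genes, those of smallest p off the cell cycle and collagen lists, and of the falling genes Cntfr and Coch, in each young library (TMM-scaled CPM, log axis, blue sham, orange injured, symbol shape for the replicate). In every row the orange and blue symbols do not overlap, which the choice of these genes from the same libraries favours. Open symbols at 0.02 stand for 0 counts.

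Cell division genes that the cell cycle list did not hold made up 21 of the 58. Fam83d, a spindle protein, had 1 count over the sham group and 74, 150 and 132 counts in the injured libraries, 316 times as many per library size (exact 95% interval 56.4 to 12529). Pbk, a mitotic kinase, stood at 0.058, 0.153 and 0 CPM in sham and at 4.11, 7.53 and 4.50 CPM in injured valves (6.12 ± 0.86, adjusted p = 0.0216). Iqgap3, a scaffold protein of dividing cells, rose 7.42-fold from 2.99, 1.81 and 2.56 CPM to 12.4, 24.5 and 17.9 CPM. Fam111a, a replication-associated protease, rose 2.28-fold from 10.5, 9.11 and 8.79 CPM to 19.7, 22.1 and 22.9 CPM. The remaining 17 included the kinetochore genes Ndc80, Nuf2, Kntc1 and Knstrn, the mitotic kinesins Kif4, Kif18b and Kif22, the kinase Mastl and the DNA ligase Lig1. With the 19 on the list, 40 of the 78 rising genes had a role in cell division, and the median change of these 40 was 2.92.

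Metabolic and regulatory genes were few. Fdps, farnesyl diphosphate synthase of the mevalonate pathway, stood at 14.7, 13.4 and 13.5 CPM in sham and at 29.8, 41.8 and 24.7 CPM in injured valves, a change of 1.21 ± 0.20 (adjusted p = 0.0385). Pycr1, which makes proline, rose 2.28-fold, and Ch25h, cholesterol 25-hydroxylase, 3.18-fold. Hmga2, a chromatin protein of embryonic and regenerating tissue, had 0 counts in the sham libraries and 16, 45 and 61 counts in the injured libraries, at least 36.1-fold higher against 3 counts over the group. The transcription genes Mxd3, Zfp57 and Tcf19 rose 5.27-fold, 2.41-fold and 2.84-fold. Hn1l and Ttc9 rose 2.25-fold and 2.28-fold. A further 3 rising features had clone-like names. One of them, AC125167.1, is annotated as a miRNA gene at 45311673 to 45311813 on chromosome 1, inside Col3a1, so its reads cannot be told apart from those of Col3a1.

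Coch also fell. This gene, which encodes the matrix protein cochlin, stood at 21.0, 24.4 and 22.6 CPM in sham and at 10.05, 4.77 and 6.13 CPM in injured valves, 3.24-fold lower (adjusted p = 0.0909). Its groups did not overlap, and injured 2 was its lowest library.

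Genes of bone and cartilage included members far apart in direction, and 0 of 23 were called (median 0.08). Cytl1, a secreted protein of cartilage, stood at 466, 763 and 544 CPM in sham and at 154, 256 and 259 CPM in injured valves (-1.41 ± 0.32, adjusted p = 0.123). Chad, the cartilage matrix protein chondroadherin, stood at 1189, 995 and 1238 CPM in sham and at 237, 554 and 621 CPM in injured valves (-1.28 ± 0.42, adjusted p = 0.323). Sost, the Wnt inhibitor sclerostin, stood at 546, 437 and 236 CPM in sham and at 227, 136 and 151 CPM in injured valves (-1.24 ± 0.31, adjusted p = 0.162). With Ibsp and Comp, bone sialoprotein and cartilage oligomeric matrix protein, 5 of the 23 had every injured library below every sham library, an order found in 5.07% of all genes tested. Chad, Sost, Ibsp and Comp were named after their values were seen. The opposite order was found in 3 of the 23, against 9.54% of all genes tested. By sign, 12 of the 23 were positive and 11 negative. Spp1, the matrix protein osteopontin, was one of the 3, at 91.6, 62.2 and 54.6 CPM in sham and 108, 352 and 285 CPM in injured valves (1.84 ± 0.46, adjusted p = 0.161).

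Inflammatory genes gave few calls. Vsig4, a complement receptor of resident macrophages, rose from 3.799, 4.36 and 4.46 CPM to 9.02, 9.80 and 9.49 CPM, a change of 1.17 ± 0.19 (adjusted p = 0.0354). Of the 29 monocyte and macrophage markers on the list, which did not hold Vsig4, 0 were called and 25 were positive (median 0.44). Their summed level ranged from 1031 to 1357 CPM in sham and from 1099 to 1848 CPM in injured valves, with injured 2 highest. Among 31 cytokine and chemokine genes 26 were positive (median 0.59) and Lif alone was called. Ccl2, the attractant of monocytes, stood at 5.48, 1.66 and 5.56 CPM in sham and at 16.2, 33.6 and 15.3 CPM in injured valves, with an adjusted p of 0.101.

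Neutrophil markers were near 0 in most libraries. Their summed level was 19.4, 14.1 and 20.3 CPM in sham and 7.56, 74.3 and 24.9 CPM in injured valves, and injured 2 alone was high. S100a8, a defining marker, was at 0 in injured 1 and injured 3. Over the 11 markers the median was 0.86, and without injured 2 it was -0.96. The 16 lymphocyte and 24 interferon-stimulated genes had medians of -0.29 and 0.13, with 0 called.

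Endothelium, the layer that the wire damages, showed no called marker with all libraries in the fit. Of 23 pan-endothelial genes 9 were positive (median -0.23), and their summed level was 1316, 1434 and 2021 CPM in sham and 898, 1816 and 1845 CPM in injured valves. Injured 1 was the low library: Cdh5, VE-cadherin, stood there at 26.6 CPM, against 116 and 160 CPM in injured 2 and 3 and 77.1, 105 and 158 CPM in sham valves. Without injured 1 the list median was 0.10, and it was also 0.10 without sham 3. Kdr, the main VEGF receptor, was low in injured 1 and 2, at 26.7 and 34.6 CPM against 57.0 to 146 CPM in sham valves, and stood at 113 CPM in injured 3. Kdr thus shared with Myh6, and Cdh5 did not, a level below every sham library in both injured 1 and injured 2. Without injured 3, Kdr and Robo4, another gene of the list, were called as falling. Their changes in that fit were -1.69 and -1.71 (edgeR adjusted p = 0.0536 and 0.0598). Robo4 was named after its values were seen.

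Interstitial cells were represented by 26 markers with a median of 0.09, of which Vcan and S100a4 rose. Pdgfra, a marker of valve fibroblasts, stood at 164, 177 and 179 CPM in sham and at 202, 174 and 182 CPM in injured valves, and Col1a1 at 1829, 1550 and 1786 CPM against 2750, 4295 and 3605 CPM (1.04 ± 0.27, adjusted p = 0.185). On the list of mesenchymal transition and myofibroblast genes, 4 of 32 rose (Tnc, Cthrc1, Adam12 and Inhba), 28 were positive, and the median was 0.50. Acta2, smooth muscle actin, did not share that direction, at 5696, 4213 and 2343 CPM in sham and 3778, 3242 and 2034 CPM in injured valves (-0.44 ± 0.31).

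Markers of other cells the dissection could hold were measured as lists, with 0 members called in each. The 16 smooth muscle and pericyte genes had a median of -0.21, and Myh11, smooth muscle myosin, ranged from 2263 to 5631 CPM in sham and from 1457 to 4447 CPM in injured valves. The 21 Schwann cell and nerve genes had a median of -0.21, and Mbp, myelin basic protein, stood at 20.4, 15.9 and 25.4 CPM in sham and 9.21, 13.8 and 11.8 CPM in injured valves (adjusted p = 0.168). The 11 mesothelial markers had a median of 0.83, and 0.12 without injured 2, whose summed level of 170 CPM was above the 35.3 to 99.3 CPM of sham and the 85.1 and 50.2 CPM of the other injured libraries. The 15 adipocyte, 9 melanocyte and 11 red cell and platelet markers had medians of 0.42, 0.07 and -0.13. The part of these cells in the called genes was not tested.

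Mitochondrial and stress genes followed the muscle signal or varied within sham. All 27 nuclear oxidative phosphorylation genes and all 20 fatty acid oxidation and uptake genes tested were negative, with medians of -0.44 and -0.70 and 0 called. Atp5b, the beta subunit of ATP synthase, stood at 1282, 1755 and 2095 CPM in sham and at 731, 814 and 1958 CPM in injured valves, with injured 1 and 2 below all sham libraries as for Myh6. All 15 heat shock genes were negative (median -0.59), and 0 were called. Hspa1a, the inducible HSP70, stood at 1343, 600 and 152 CPM in sham and at 96.6, 395 and 65.9 CPM in injured valves, so its range within sham exceeded the difference between the group means, and sham 1 was its highest library. Without sham 1 the heat shock median was -0.27.

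**Figure D4:**
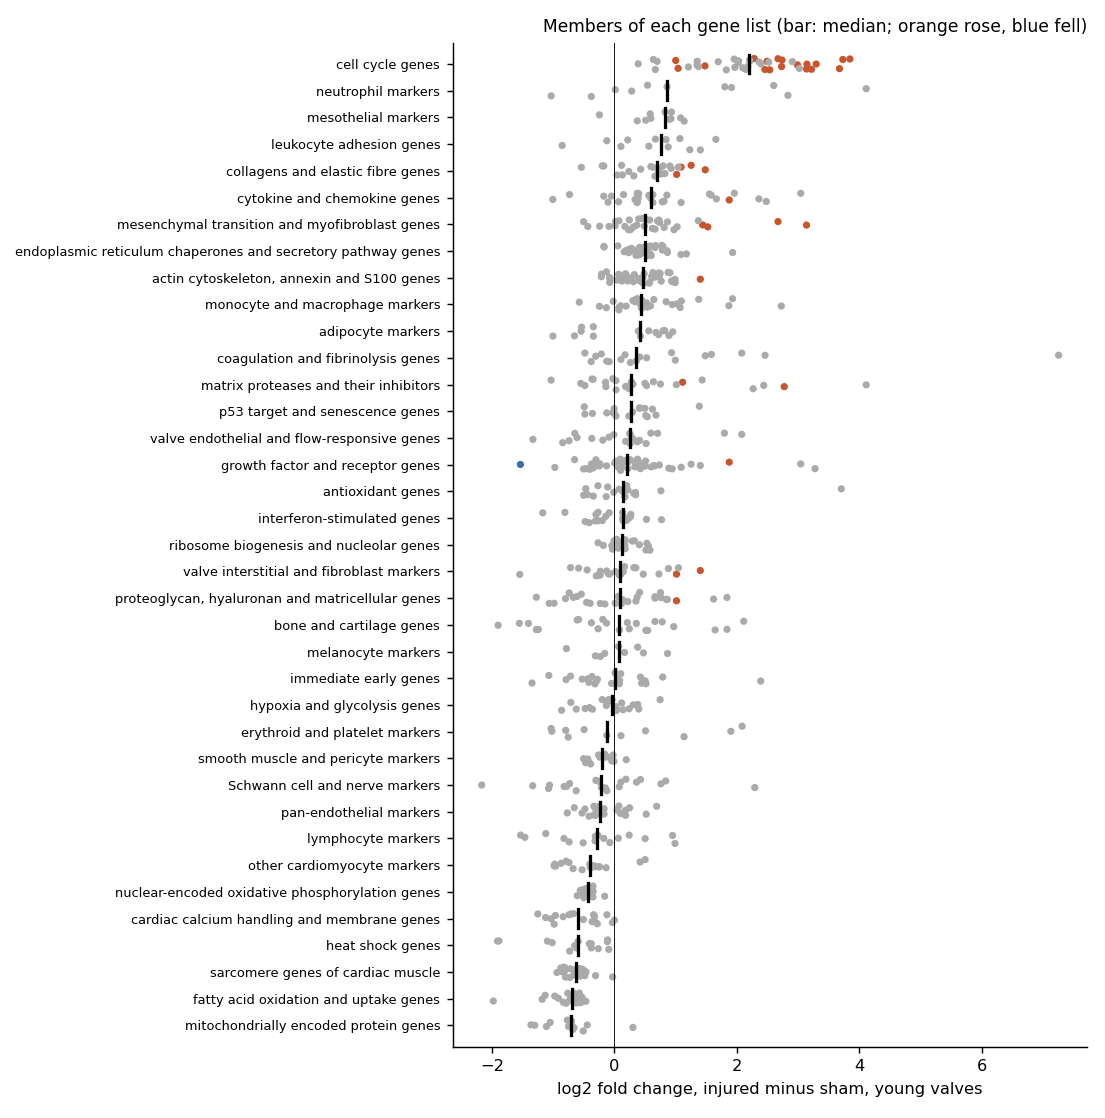
Log2 fold change (injured minus sham, horizontal) of every tested member of the gene lists shown, 1 list per row with its median as a bar, orange for genes that rose and blue for genes that fell. Cell cycle genes lie highest, at a median of 2.19, and the sarcomere, fatty acid oxidation and mitochondrially encoded genes lie lowest, at -0.62, -0.70 and -0.71.

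Leaving out injured 3, the injured library rich in muscle transcripts, changed the balance of directions. Of 447 genes then called, 137 rose and 310 fell, 0.714% and 1.61% of the genes tested. Among those that fell were 16 of 23 sarcomere genes (median -1.60), 16 of 20 fatty acid oxidation genes (median -1.42) and 7 of 27 oxidative phosphorylation genes (median -0.96). Of the 81 genes called with all libraries 79 were called again, and these held all 58 off the cell cycle and collagen lists. The sarcomere score is each library's mean of the sarcomere genes on the log2 scale. Fitted with this score as a covariate, 61 genes rose (0.315%) and 10 fell (0.0516%), 53 of them shared with the 81. The sarcomere median was then -0.12, a value near 0 that a covariate made from these same genes brings about by itself. In that fit Timp1 was called at 2.71, Dclk1 at 1.02, Tnc at 1.47, Lif at 1.79 and Cntfr at -1.67. Vcan, Nppc and Serpina3n were not called, at 0.92, 9.53 and 1.45. The size of the Nppc value is not a measured fold, because every young sham library had 0 counts.

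The number of calls also fell when other libraries were left out. Without injured 2, the highest library of most rising genes, 16 genes rose (0.0837%), and 4 of these were off both lists and without a role in cell division. Without sham 2, 20 rose (0.104%), and without sham 1 or sham 3, 40 and 46 rose (0.209% and 0.24%). Without injured 1, 91 rose (0.474%). In each of these fits all 78 genes kept a positive change. Called in all 6 fits that left out 1 young library were 14 genes, among them Timp1, Dclk1, Col3a1, Fam83d and Fam111a. Lif was called in 3 of the 6 fits, Tnc in 4, Nppc, Cntfr and Coch in 2, and Vcan in 1. With a term for sex 62 genes rose (0.32%) and 2 fell (0.0103%), 57 of them shared with the 81. Timp1, on chromosome X, was called at 2.85, and Tnc and Lif at 1.59 and 1.98. Cntfr, Nppc, Vcan, Mmp14, Lrp8 and Stmn1 were among those not called in that fit, and Cntfr stood at -1.38 with an adjusted p of 0.102 in edgeR.

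**Figure D5:**
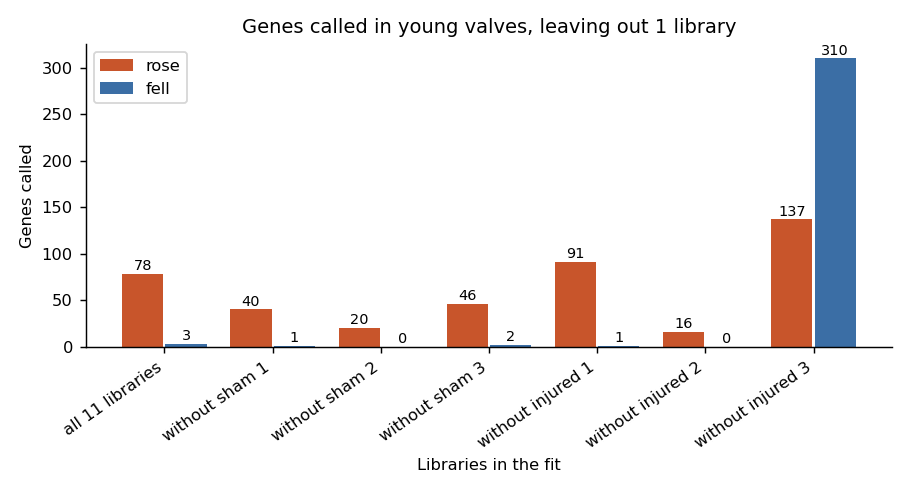
Number of genes called in young valves (vertical, orange rose, blue fell) with all 11 libraries and without each young library in turn. Falling genes number 0 to 3 in every fit but the one without injured 3, where they number 310, and rising genes range from 16 to 137.

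In aging valves the same contrast called 0 genes, at 1710 with an unadjusted p under 0.05, over 3 sham and 2 injured libraries. Of the 78 genes that rose in young valves 72 were positive in aging valves. The share of all genes tested that were positive there was not counted, and their median in aging valves was -0.01. The median change of the 78 was 2.29 in young and 1.05 in aging valves. The choice of the 78 by their change in young valves favours the larger median there. The injury by age interaction, which tests the difference itself, called 0 genes in edgeR, and 1523 had an unadjusted p under 0.05. DESeq2 called 208, or 0.945%. Among the 81 called genes the lowest adjusted interaction p was 0.446, and 46 had an unadjusted p under 0.05, which the choice of genes by their change in young valves favours.

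Of the role groups, signalling genes had the lowest median in aging valves, where the median change of the 8 was -0.01 against 1.78 in young valves. The choice of these genes by their change in young valves favours a larger change there. Lif stood at 2.65, 3.24 and 2.02 CPM in aging sham and at 2.34 and 2.78 CPM in aging injured valves, a change of -0.04 ± 0.35. Nppc, at 0 in young sham, stood at 0.663, 0.432 and 2.37 CPM in aging sham and at 0.675 and 0.0292 CPM in aging injured valves. Cntfr stood at 25.8, 19.8 and 27.7 CPM in aging sham, below all young sham values, and at 15.3 and 32.0 CPM in aging injured valves. The injured and sham values of these 3 genes overlapped in aging valves. Their interaction terms were 1.92 ± 0.47, 11.57 ± 2.27 and -1.49 ± 0.44, each with an adjusted p of 0.446 or above in edgeR. The Nppc term rests on a young sham group at 0, so its size and SE are not a measured difference.

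Other rising genes had the same direction at both ages. Timp1 stood at 66.5, 48.2 and 53.7 CPM in aging sham and at 127 and 140 CPM in aging injured valves (1.25 ± 0.29). Tnfrsf23, one of the signalling genes, stood at 7.13, 8.64 and 9.87 CPM in aging sham valves. In aging injured valves it stood at 14.8 and 16.5 CPM (0.87 ± 0.32). Hmga2 stood at 0.0552, 0 and 0.0354 CPM in aging sham and at 3.44 and 0.965 CPM in aging injured valves. Pycr1 changed by 1.30 ± 0.24 in aging and by 1.19 ± 0.22 in young valves, and Ch25h by 1.46 ± 0.35 and 1.67 ± 0.33. The 5 genes with the smallest interaction p over the whole table (Zfp442, 6230400D17Rik, Med31, 4930426I24Rik and Ccz1) were not called in young valves.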

How the data were processed

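RNA sequencing of whole aortic valves gave 1 library per mouse. The genome build was mm10 and TopHat2 2.1.0 was used, per the submitters' processing notes. Which counter, strand setting and annotation were used is not given in the sources used here. Reads of overlapping genes may therefore be shared. The authors deposited raw counts, used for every test, and RPKM values, used only for ranks and levels per length. In the counts, 1 library column matched no sample label and was not used.

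Counts were filtered with filterByExpr (minimum count 10), TMM-scaled and fitted with edgeR 4.0.16 in R 4.3.3, with 4 group means over all 11 libraries, 7 residual degrees of freedom and Benjamini-Hochberg adjustment over 19366 genes. The thresholds (adjusted p under 0.1, over 2-fold) are those of the series' design text. The SE was derived from the F statistic (size of the log2 change over root F). Library pairs of a group differed by far more than counting noise. The comparison, the 38 gene lists (853 genes) and the rules were chosen with earlier results of these data known. Named genes were the 15 rising genes of smallest p off the cell cycle and collagen lists, falling genes, 8 cardiac genes, and per list the called or leading and the most abundant members. Other called genes were named by role. Alternatives used DESeq2 1.42.0, limma 3.58.1, other filters and scalings, added terms, and each library left out. The test was checked on simulated data. Exact intervals and the floor of 3 counts cover counting error only. Promoters are RefSeq's. Some called genes are not reported here.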

Additional observations from a re-analysis of the deposited data

How the results depend on the processing

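All 78 rising genes kept a positive change in every fit run, but the counts moved. DESeq2 gave 236 up and 51 down (79 of the 81 genes shared) and 208 interaction calls, limma-voom 50 and 6 (49 shared), and limma-voom with library quality weights 249 and 127 (80 shared). Genes that fell numbered 10 with no filter on low counts, 6 with a CPM of at least 1 in at least 3 libraries, and 10 with the sarcomere score as a covariate. The young libraries fitted alone gave 11 up and 0 down, and with a replicate block 31 and 9. Leaving out 1 of the 11 libraries, calls ranged from 16 to 137 up and from 0 to 310 down, and the interaction called 0. In edgeR and limma the interaction called 0 in every fit run.

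The replicate block over all libraries gave 52 up and 3 down, 47 shared with the 81. Same-numbered sham and injured libraries correlated at 0.08, -0.01 and 0.25 in their deviations from group means. The labels state no pairing between them, and so few correlations cannot settle whether same-numbered libraries belonged together. Injured 1 and 3, but not injured 2, correlated best with the sham library of their own number.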
